A study of Mus musculus with 9 samples.

Results

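Ranbp3l, Spp2, Tmem27, Eno3, Pmp22, Cnnm1 and Bst1 are 7 of the 50600 genes counted by RNA-sequencing in mouse intestinal organoids and tumoroids. They were picked because their RNA differed strongly or consistently between organoids grown in 2 conditioned media (cM), and each is described here in every library, in tumoroids and beside its relatives. Organoids came from the small intestine of wildtype adult mice (C57BL/6 in the labels) and were kept for 24 hr in equal volumes of concentrated organoid medium with EGF, Noggin and R-spondin1 (ENR) and of medium conditioned by tumoroids (T-cM) or by wildtype organoids (WT-cM), with 3 replicates from 3 mice for each medium. The 3 tumoroid libraries came from intestinal tumours of older Apc1638N/+ mice (strain field MIX), were labelled untreated and were grown for 24 hr, and tumoroid cultures received EGF and Noggin without R-spondin1. Genotype, strain, age of the mice and medium therefore cannot be told apart in comparisons with tumoroids. T-cM came from tumoroid cultures, kept without R-spondin1, whereas WT-cM was made in ENR, over a time that could be shorter. Between the media, base factors and conditioning time therefore cannot be told apart from the cells that conditioned them. In the 6 organoid libraries the title and the treatment field name opposite media, so the groups are named by title (T-cM-titled, WT-cM-titled), and all directions between them are the opposite if the treatment field is right.

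The 7 genes belong to no common pathway. Ranbp3l encodes a Ran-binding protein that takes BMP-activated SMAD1 and SMAD5 out of the nucleus, and Spp2 encodes a secreted phosphoprotein with a cystatin-like fold that binds BMPs. Tmem27 encodes collectrin, a membrane protein that brings neutral amino acid transporters to the cell surface in the kidney. Eno3 encodes the muscle form of the glycolytic enzyme enolase, and Pmp22 a tetraspan membrane protein known from the myelin of Schwann cells and also made by epithelia. Cnnm1 belongs to the cyclin M family of proteins that take part in magnesium transport. Bst1 (CD157) is an enzyme on the cell surface that makes cyclic ADP-ribose from NAD, is a relative of CD38, and is known in the intestine as a Paneth cell signal to crypt stem cells.

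All 7 genes are protein-coding and lie on the plus strand of GRCm38. Ranbp3l (ENSMUSG00000048424.15) spans chr15:8967949-9067335, Spp2 (ENSMUSG00000026295.12) chr1:88406961-88426438 and Tmem27 (ENSMUSG00000015401.12) chrX:164088830-164118860. Eno3 (ENSMUSG00000060600.15) spans chr11:70657202-70662513, Pmp22 (ENSMUSG00000018217.12) chr11:63128982-63159547 and Cnnm1 (ENSMUSG00000025189.8) chr19:43440436-43497210. Bst1 (ENSMUSG00000029082.17) spans chr5:43818885-43843986. Exons of Bst1 share 98 bases with Fbxl5 on the other strand and those of Cnnm1 share 25 and 124 bases with the antisense genes Gm47936 and Gm47938, and the strand setting of the counting is not given in the sources used here.

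RefSeq (GRCm38.p6) held promoters for 6 of the 7 genes. The 250 bases before RefSeq's start site, which for Spp2 and Tmem27 lies inside the gene span given above, are shown for Ranbp3l, Spp2 and Tmem27, the genes of the set closest to 0 in WT-cM-titled organoids, with capitals marking matches to any of 4 short motifs searched on both strands.
Ranbp3l, chr15:8967699-8967948, plus strand: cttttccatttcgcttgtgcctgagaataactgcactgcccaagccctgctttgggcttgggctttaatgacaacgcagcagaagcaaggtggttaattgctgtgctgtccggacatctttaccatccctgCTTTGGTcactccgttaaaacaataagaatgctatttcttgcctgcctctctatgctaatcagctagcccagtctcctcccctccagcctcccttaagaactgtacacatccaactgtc
Spp2, chr1:88406760-88407009, plus strand: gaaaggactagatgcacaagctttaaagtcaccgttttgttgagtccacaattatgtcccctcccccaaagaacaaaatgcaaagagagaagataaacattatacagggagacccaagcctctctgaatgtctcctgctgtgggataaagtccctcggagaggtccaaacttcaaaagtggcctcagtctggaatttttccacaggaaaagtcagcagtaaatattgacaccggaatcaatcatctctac
Tmem27 (listed there as Cltrn, with 2 promoters of which the first is shown), chrX:164089937-164090186, plus strand: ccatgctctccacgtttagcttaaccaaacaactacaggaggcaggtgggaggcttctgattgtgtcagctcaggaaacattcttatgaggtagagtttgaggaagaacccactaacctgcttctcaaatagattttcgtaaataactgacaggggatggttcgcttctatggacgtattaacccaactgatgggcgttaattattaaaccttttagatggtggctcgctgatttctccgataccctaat

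The TCF/LEF motif CTTTGNT, held by 5248 of the 32851 promoters of the same length, stood in that of Ranbp3l, 119 bases before the start. The TEAD motif GGAATG, held by 12.6%, was in the promoter of Eno3 and in 1 of the 4 of Pmp22. The AP-1 motif TGANTCA (6.75% of promoters) and the TATA motif TATAAA (12.4%) were in none of the promoters found for the 7 genes, and the Spp2, Tmem27 and Cnnm1 windows held none of the 4 motifs. None of the 4 motifs overlapped another in these windows.

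Library totals ran from 16541635 to 25170966 reads on genes. Expression is given in CPM, counts scaled to the TMM-adjusted library size, as mean ± SD over 3 replicates, and 3 reads, taken as the least that shows expression, correspond to 0.103 to 0.204 CPM, a limit that covers counting error only. A gene was called at an adjusted p under 0.05 (edgeR quasi-likelihood test, Benjamini-Hochberg over 16208 genes) with an absolute log2 fold change above 1. The 6 epithelial markers checked, among them Epcam and Cdh1, summed to between 5375 and 8837 CPM in every library, whereas the markers of fibroblasts, endothelium and immune cells each summed to at most 5.69 CPM in organoids, with Lum, Col3a1, Kdr, Emcn and Cd3e at 0. In tumoroids 1, 2 and 3 the immune cell markers summed to 7.75, 27.1 and 25.6 CPM, and those of fibroblasts and endothelium to at most 6.05. Replicate 1 stood apart among the organoids, with enterocyte markers (10 genes) at 30823 and 27882 CPM in its T-cM-titled and WT-cM-titled libraries against 46730 to 55227 in the other 4, and crypt stem cell markers (8 genes) at 519 and 713 against 259 to 325. In such bulk samples, fewer cells of a type and less RNA per cell cannot be told apart.

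All 7 genes were among the 179 called between the organoid groups (1.10% of tested genes), 6 higher (0.673% of tested genes were) and 1, Bst1, lower (0.432%) in the T-cM-titled group, as their choice fixed. Their differences are therefore described here without a test. By size of the log2 fold change they ranked 1 (Ranbp3l), 4 (Spp2), 8 (Tmem27), 17 (Eno3), 24 (Cnnm1), 37 (Bst1) and 51 (Pmp22) among the 179. The direction was the same in all 3 replicate pairs for each, as in 41.2% of tested genes, and for 4 of the 7 the groups did not overlap, as in 10.4%.

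Ranbp3l had no read in any WT-cM-titled library. In the T-cM-titled libraries it was at 0.159, 28.7 and 27.1 CPM in replicates 1, 2 and 3, from 3, 423 and 481 reads. Replicates 2 and 3 were at least 157-fold and 204-fold above their WT-cM-titled partners, taking 3 reads per library for the latter, whereas replicate 1 was at that limit itself, so that no difference was detectable in that pair at this depth. The lack of overlap between the groups rests on those 3 reads in replicate 1.

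Spp2 and Tmem27, the other genes near 0 in WT-cM-titled organoids, had the same pattern. Spp2 was at 1.06, 46.7 and 54.7 CPM in T-cM-titled replicates 1, 2 and 3, against 0.330, 0.669 and 0.797 in their WT-cM-titled partners. The pairs differed 3.21-fold (95% interval 1.24 to 9.76, for counting error only), 69.8-fold (38.8 to 140.5) and 68.6-fold (43.2 to 116). Tmem27 was at 0.264, 12.0 and 10.4 CPM in T-cM-titled replicates, against 0.110, 0.365 and 0.310 in WT-cM-titled ones. Its pairs 2 and 3 differed 32.9-fold (14.8 to 90.9) and 33.6-fold (16 to 84.8), while pair 1 rested on 5 against 2 reads (2.41-fold, 0.394 to 25.3). T-cM-titled replicate 1 lay below WT-cM-titled replicates 2 and 3 for Tmem27, so the groups overlapped.

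**Figure D1:**
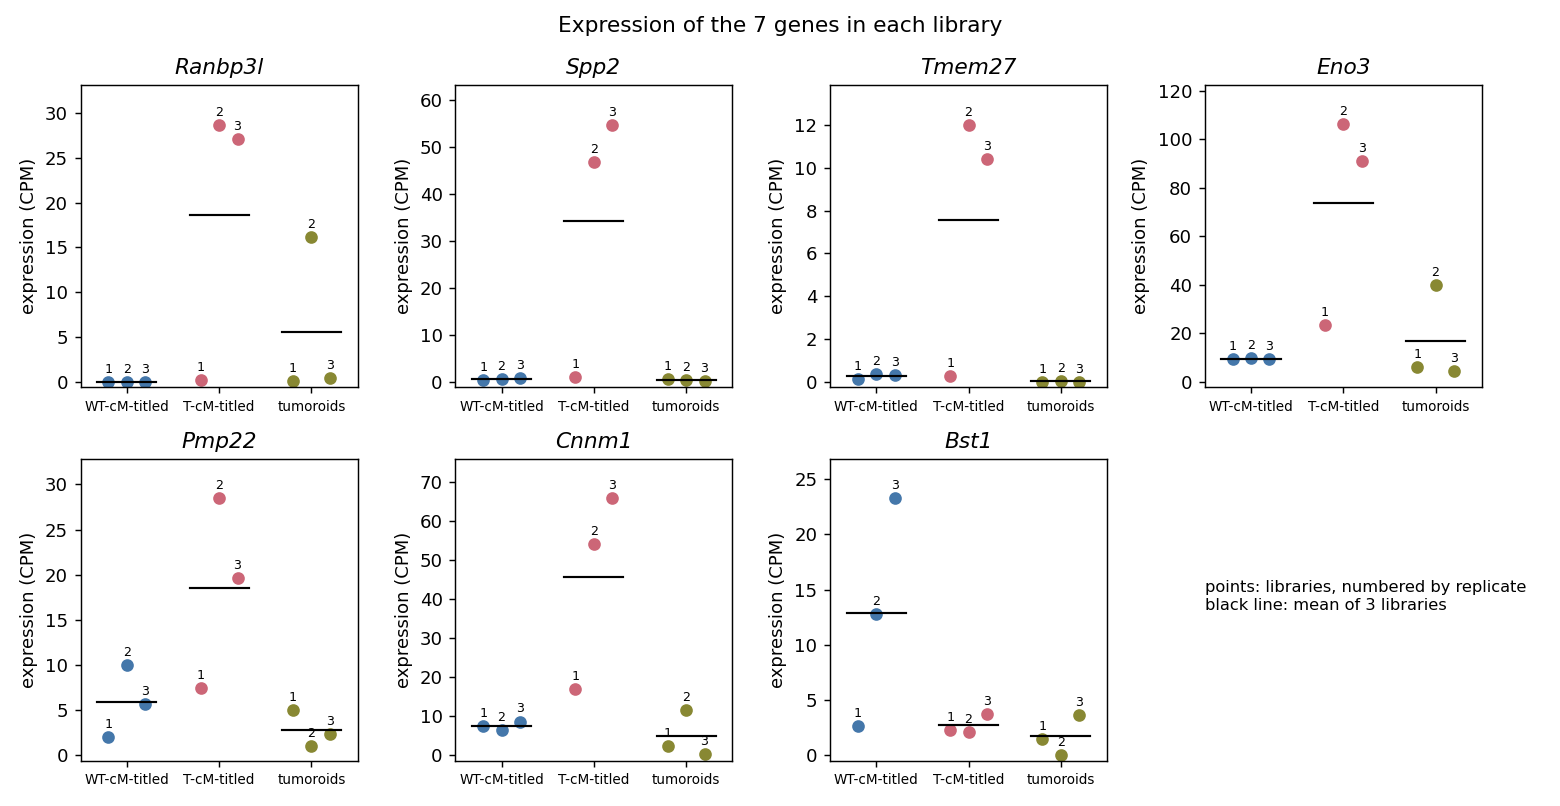
Expression of each gene (CPM, linear axes from 0) in every library, with points numbered by replicate and a black line at the mean of 3 libraries. T-cM-titled replicate 1 lies below replicates 2 and 3 for the 6 genes that are higher in that group, and tumoroid 2 stands above the other tumoroids for Ranbp3l (16.2 CPM), Eno3 (39.9) and Cnnm1 (11.7).

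Eno3 and Cnnm1 were expressed in both media, at an even level among the WT-cM-titled libraries. Eno3 was at 9.51, 9.73 and 9.30 CPM in WT-cM-titled replicates 1, 2 and 3, with the smallest SD relative to its mean among the 6 genes that had reads there, and at 23.4, 106 and 91.1 in T-cM-titled ones. The pairs differed 2.46-fold (2.06 to 2.95), 10.9-fold (9.28 to 12.9) and 9.80-fold (8.48 to 11.4). Cnnm1 was at 7.53, 6.63 and 8.68 CPM in WT-cM-titled and at 16.9, 54.0 and 65.7 in T-cM-titled replicates, with pairs that differed 2.24-fold (1.83 to 2.76), 8.15-fold (6.66 to 10.1) and 7.57-fold (6.50 to 8.86). For both genes every T-cM-titled library lay above every WT-cM-titled one, and the interval of pair 1 lay below those of pairs 2 and 3.

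Pmp22 was the exception, with a difference in pair 1 as large as in the others. It was at 7.51, 28.5 and 19.7 CPM in T-cM-titled replicates 1, 2 and 3, against 2.09, 9.97 and 5.71 in WT-cM-titled ones. The pairs differed 3.60-fold (2.5 to 5.29), 2.86-fold (2.38 to 3.44) and 3.44-fold (2.81 to 4.25), and their intervals overlapped. Replicate 1 was the lowest of its group in both media, so the libraries of the groups overlapped although each pair differed. The 6 glial markers summed to between 60.5 and 63.8 CPM in T-cM-titled organoids and between 58.6 and 67.7 in WT-cM-titled ones. Of these, Sox10 had no read in any library and S100b fell in T-cM-titled organoids (log2 fold change −0.84, adjusted p = 0.032 from edgeR).

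Bst1 was the only one of the 7 that was lower in T-cM-titled organoids, again with the smallest difference in pair 1. It was at 2.69, 12.8 and 23.2 CPM in WT-cM-titled and at 2.27, 2.10 and 3.78 in T-cM-titled replicates 1, 2 and 3. WT-cM-titled libraries were 6.07-fold (4.15 to 9.16) and 6.16-fold (4.77 to 8.06) above their partners in pairs 2 and 3, and 1.18-fold (0.770 to 1.83) in pair 1. The T-cM-titled libraries spread little for this gene, while WT-cM-titled replicate 1 lay among them, below its own group. Of 9 Paneth cell markers, 4 (Defa17, Mmp7, Ang4 and Itln1) also fell in T-cM-titled organoids (adjusted p under 0.05 in edgeR, as did 5.05% of tested genes). The 9 summed to 4662, 4566 and 5271 CPM in T-cM-titled replicates, against 5069, 5175 and 6421 in WT-cM-titled ones. Of 9 enteroendocrine markers 5 fell too (Chga, Chgb, Gip, Gcg and Cck), their list summing to 545, 306 and 399.7 CPM against 603, 429 and 631. Of 8 crypt stem cell markers 2 fell (Ascl2 and Smoc2), the list summing to 519, 277 and 325 CPM against 713, 278 and 259. The part of these cell types in the Bst1 difference was not tested.

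**Figure D2:**
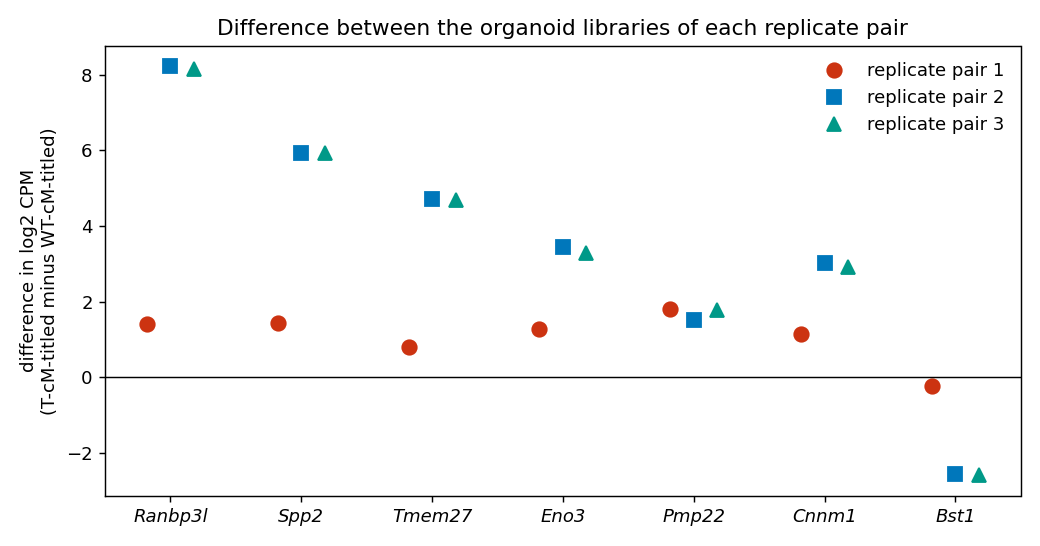
Difference in log2 CPM (prior count of 2) between the T-cM-titled and WT-cM-titled library of each replicate pair, by gene. For 6 of the 7 genes pair 1 (circles) lies closer to 0 than pairs 2 and 3, with 1.29 against 3.44 and 3.28 for Eno3, whereas the pairs of Pmp22 lie at 1.80, 1.51 and 1.77.

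Per length, in the TPM deposited by the authors, Eno3 (103 ± 60.8) and Spp2 (83.3 ± 70.2) had the highest levels of the set in T-cM-titled organoids. Cnnm1 (22.0 ± 11.9), Pmp22 (19.3 ± 10.8), Ranbp3l (14.9 ± 12.8) and Tmem27 (11.9 ± 10) followed, and Bst1 was lowest at 2.01 ± 0.61. Each gene differed from the next in this order by less than the larger SD of the pair. In WT-cM-titled organoids the order was Eno3 (13.3 ± 1.07), Bst1 (9.12 ± 6.94), Pmp22 (6.01 ± 3.94), Cnnm1 (3.67 ± 0.45), Spp2 (1.44 ± 0.51), Tmem27 (0.41 ± 0.20) and Ranbp3l (0). The steps from Eno3 to Bst1, from Bst1 to Pmp22 and from Pmp22 to Cnnm1 were each smaller than the larger SD of the pair, and those below Cnnm1 were larger. In tumoroids Eno3 (35.3 ± 43.5) and Ranbp3l (6.84 ± 11.3) led by the mean, Eno3 being the highest of the 7 in each tumoroid and Ranbp3l second through tumoroid 2, and Pmp22 (4.06 ± 2.67), Cnnm1 (3.54 ± 4.47), Bst1 (1.81 ± 1.95), Spp2 (1.32 ± 0.62) and Tmem27 (0.03 ± 0.05) followed, and the steps were smaller than the larger SD of the pair except that from Spp2 to Tmem27.

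Tumoroid levels are set beside each organoid group without a test, since the libraries of both groups chose the genes, 6 of them for being high in T-cM-titled and Bst1 for being high in WT-cM-titled organoids. Spp2 was at 0.544, 0.409 and 0.172 CPM in tumoroids 1, 2 and 3, near its level in WT-cM-titled organoids. Its fitted log2 fold change in tumoroids was −0.71 (SE 1.22) against WT-cM-titled and −6.52 (SE 1.23) against T-cM-titled organoids. Tmem27 had 0, 1 and 0 reads in the 3 tumoroids, against 15 reads over the WT-cM-titled and 367 over the T-cM-titled libraries. It was the only gene of the 7 for which tumoroids and organoids did not overlap, as was so for 45.8% of tested genes. Pmp22 was at 4.99, 1.04 and 2.37 CPM in tumoroids, with a log2 fold change of −1.09 (SE 0.70) against WT-cM-titled and −2.73 (SE 0.73) against T-cM-titled organoids.

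Eno3 had a log2 fold change of 0.82 (SE 0.79) and Cnnm1 of −0.64 (SE 0.86) against WT-cM-titled organoids, and of −2.13 (SE 0.81) and −3.22 (SE 0.91) against T-cM-titled ones. For Bst1 the values were −2.90 (SE 1.02) and −0.65 (SE 0.99).

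**Figure D3:**
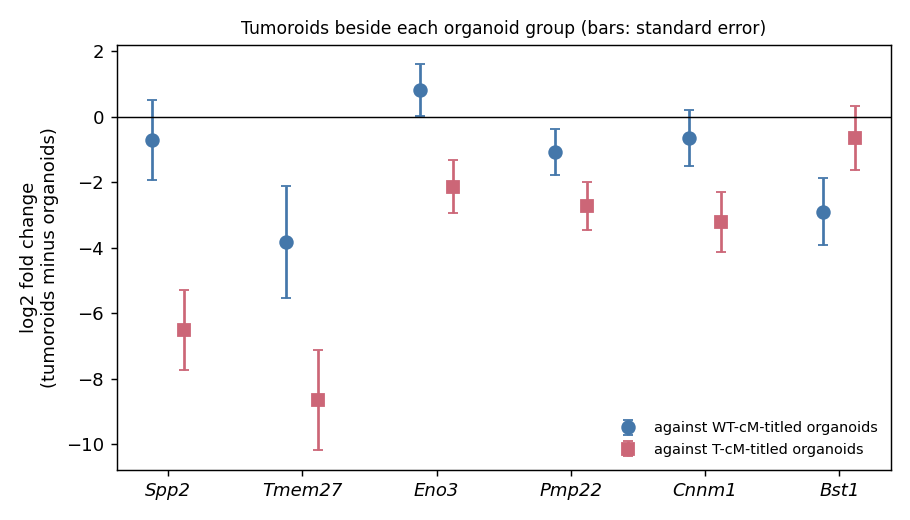
Fitted log2 fold change of 6 genes in tumoroids against WT-cM-titled (blue circles) and against T-cM-titled organoids (red squares), with standard error bars. Eno3 lies at 0.82 against WT-cM-titled and at −2.13 against T-cM-titled organoids, and Bst1 alone lies lower against WT-cM-titled (−2.90) than against T-cM-titled ones (−0.65), in the order that the choice of the genes fixes. The fitted sizes for Tmem27 rest on 1 tumoroid read, and Ranbp3l is left out because WT-cM-titled libraries held no read of it.

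Ranbp3l, Eno3 and Cnnm1 stood far higher in tumoroid 2 than in the other tumoroids. Ranbp3l was at 0.0453, 16.2 and 0.447 CPM in tumoroids 1, 2 and 3, from 1, 436 and 13 reads, so that tumoroid 2 was between T-cM-titled replicate 1 and the other 2 libraries of that group. Eno3 was at 5.89, 39.9 and 4.47 CPM and Cnnm1 at 2.49, 11.7 and 0.481. In tumoroids 1 and 3 both were below every organoid library, and in tumoroid 2 both were above every WT-cM-titled one. Spp2, Tmem27 and Pmp22 did not stand out in tumoroid 2. The enterocyte markers summed to 375, 680 and 132 CPM in tumoroids 1, 2 and 3 and the muscle markers to 119, 167 and 36.5, both highest in tumoroid 2. Only 2 of the 7 muscle markers, Acta1 among them, reached 1 TPM in any library, so their sum is no measure of muscle cells. Tumoroid 2 was lowest for the Paneth cell (2087, 231 and 1641 CPM), goblet cell (568, 197 and 626) and enteroendocrine markers (744, 74.3 and 199). The part of these cell types in the levels was not tested.

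Bst1 was at 1.45, 0.0744 and 3.64 CPM in tumoroids 1, 2 and 3, and was thus lowest in the library with the fewest Paneth, goblet and enteroendocrine cell reads. Of tumoroids 1 and 3, tumoroid 3 was higher for Bst1 and the goblet markers, but tumoroid 1 for the Paneth and enteroendocrine markers. A link with these cell types was not tested.

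The 3 tested genes whose log2 CPM followed each member most closely over the 9 libraries were found among 12631 genes with a mean of at least 1 CPM. They are given as a description, since the same libraries hold the group differences that chose the members and the differences between replicates. For Ranbp3l these were the amino acid transporter gene Slc38a2 (Pearson's r = 0.968), Agfg2 (0.965) and the ABC transporter gene Abcc5 (0.951). Abcc5 was at 19.3, 18.4 and 23.3 CPM in WT-cM-titled, 40.1, 124 and 133 in T-cM-titled and 44.0, 162 and 52.8 in tumoroid libraries 1, 2 and 3, and so shared the high tumoroid 2 and the low T-cM-titled replicate 1. Slc38a2 was at 182, 194 and 168 CPM in WT-cM-titled, 223, 383 and 357 in T-cM-titled and 182, 327 and 188 in tumoroid libraries.

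**Figure D4:**
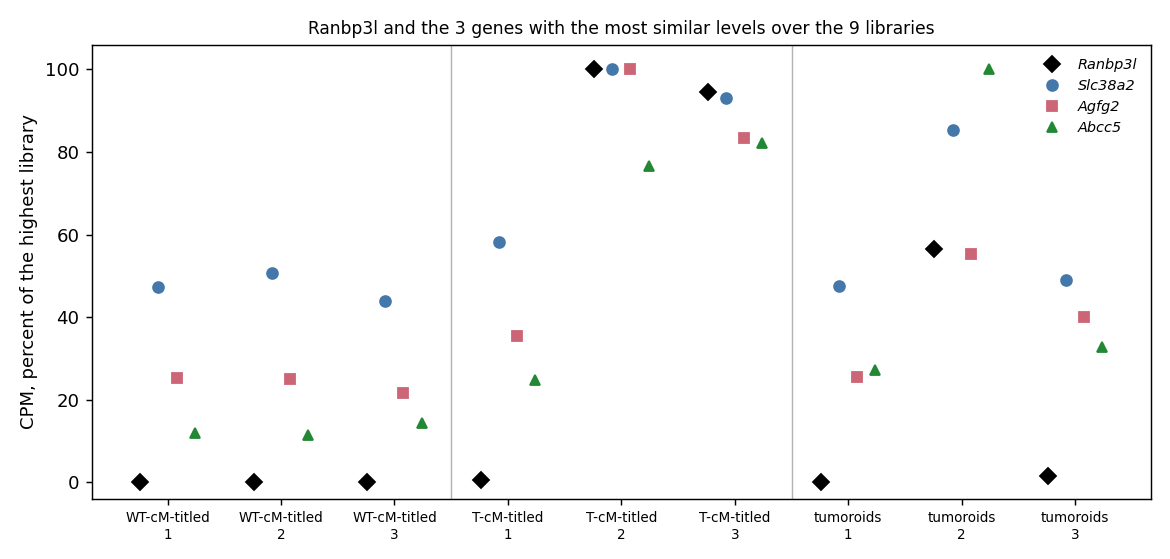
Levels of Ranbp3l and of the 3 genes most like it over the 9 libraries, each as a percentage of its highest library. All 4 are highest in T-cM-titled replicates 2 and 3 and tumoroid 2, where Ranbp3l reaches 56.5% of its highest level, and Slc38a2 keeps 43.8% or more in every library while Ranbp3l is at 0 in 3 of them.

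Spp2 and Tmem27 were each other's closest gene (r = 0.976). The cadherin gene Cdh16 was the closest to Eno3 (0.960), at 0.275, 0.0608 and 0.0443 CPM in WT-cM-titled, 1.00, 6.58 and 7.16 in T-cM-titled and 0.227, 3.23 and 0 in tumoroid libraries, again with tumoroid 2 as the highest tumoroid. Gak (0.980) was the closest to Cnnm1, Cnih4 (0.943) to Pmp22 and Arf5 (0.964) to Bst1. The other genes found were Gas2 and Sdccag3 for Spp2, Traf4 and Stim1 for Tmem27, Supt5 and B3galt5 for Eno3, Gla and Atp6v0e for Pmp22, Uaca and Il22ra1 for Cnnm1, and Ubl5 and Ebpl for Bst1, with r from 0.917 to 0.968.

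A list of 64 relatives of the 7 genes was examined next, made of their families, partners and pathways, of which 51 were tested. In T-cM-titled organoids, 6 of the 51 rose and 2 fell at an adjusted p under 0.05 (edgeR), where 5.03% of all tested genes rose, 5.05% fell and 10.1% passed in all, and 1 of the 8, Trpm6, was also past the fold change threshold. Their median log2 fold change was 0.01, and that of all tested genes was 0.00.

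The Cnnm1 list held the largest of these changes. Trpm6, the magnesium channel of the intestine and kidney, was at 1.22, 6.51 and 5.07 CPM in T-cM-titled replicates 1, 2 and 3, against 0.550, 1.09 and 0.576 in WT-cM-titled ones, a log2 fold change of 2.48 (SE 0.30, edgeR adjusted p = 1.5e-06). Every T-cM-titled library was above every WT-cM-titled one, and replicate 1 was again the lowest of its group. Of the other 7 genes of the list, the channel kinase gene Trpm7 rose by a log2 fold change of 0.28 (adjusted p = 0.041) and the magnesium transporter gene Slc41a2 by 0.40 (adjusted p = 0.0031), both higher in 3 of 3 pairs. The relatives of Cnnm1 by sequence, Cnnm2, Cnnm3 and Cnnm4, were at log2 fold changes of −0.11, −0.05 and 0.24 (edgeR adjusted p = 0.80, 0.91 and 0.054).

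In the Tmem27 list, Slc6a19, the main carrier of neutral amino acids at the brush border, rose from 321 ± 38.6 to 603 ± 200.4 CPM in T-cM-titled organoids (log2 fold change 0.87, SE 0.09, adjusted p = 1.3e-07), in 3 of 3 pairs. Slc1a1, a glutamate transporter gene, fell from 34.7 ± 4.63 to 26.3 ± 4.3 (log2 fold change −0.39, SE 0.11, adjusted p = 0.016), also in 3 of 3 pairs. Slc6a20a, another amino acid carrier gene, had a log2 fold change of 0.00 (adjusted p = 1.0), and that of Hnf4a, a transcription factor gene, was 0.11 (adjusted p = 0.38). Alongside, 4 of 10 enterocyte markers fell (Fabp1, Fabp2, Apoc3 and Lct) and 1 rose (Alpi).

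In the Eno3 list, 2 genes rose in T-cM-titled organoids. Pkm, the last enzyme of glycolysis, rose by 0.40 on the log2 scale (SE 0.07, adjusted p = 1.7e-04) and Ldha, which makes lactate, by 0.29 (SE 0.07, adjusted p = 0.0042), each higher in 3 of 3 pairs. Eno1, the enolase of most tissues, was at 1838 ± 543 and 1818 ± 614 CPM (log2 fold change 0.04, adjusted p = 0.79), and Eno2, the neuronal form, had at most 1 read in any organoid library. The 7 muscle markers summed to between 60.6 and 96.1 CPM in T-cM-titled organoids, against 46.0 to 71.3, but Ckm, Des, Actg2, Myh11 and Tnnt3 had at most 1 read in any organoid library. Acta1 rose by a log2 fold change of 0.33 (adjusted p = 0.017), 1 of the 2 muscle markers that were tested.

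Of the 8, 8, 8 and 11 listed relatives of Ranbp3l, Spp2, Pmp22 and Bst1, of which 8, 4, 6 and 8 were tested, 0 passed the adjusted p between the organoid groups in edgeR, limma voom or DESeq2, while 7, 6 and 5 were under an unadjusted p of 0.05. Smad1 and Smad5, cargo of RANBP3L, had log2 fold changes of −0.09 and 0.10, Ranbp3 of 0.06, the epithelial membrane protein gene Emp1 of 0.15 and Cd38 of −0.05 (adjusted p = 0.69, 0.68, 0.81, 0.43 and 0.82). Ahsg, the gene of fetuin-A and first of the Spp2 list, had no read in any library. The 8 relatives that passed did so within the replicate pairs. Of these, 8 kept an adjusted p under 0.05 without replicate 1, 0 without replicate 2 (7 at an unadjusted p under 0.05), 3 without replicate 3 and 0 without the replicate block (2 unadjusted), in edgeR. With DESeq2 6 of the 8 kept it, with limma voom 5, and with limma on log2(TPM + 1) 0 (6 unadjusted). None of the 8 changed direction under these alternatives. Over all tested genes, 385, 1 and 94 were called without replicates 1, 2 and 3.

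**Figure D5:**
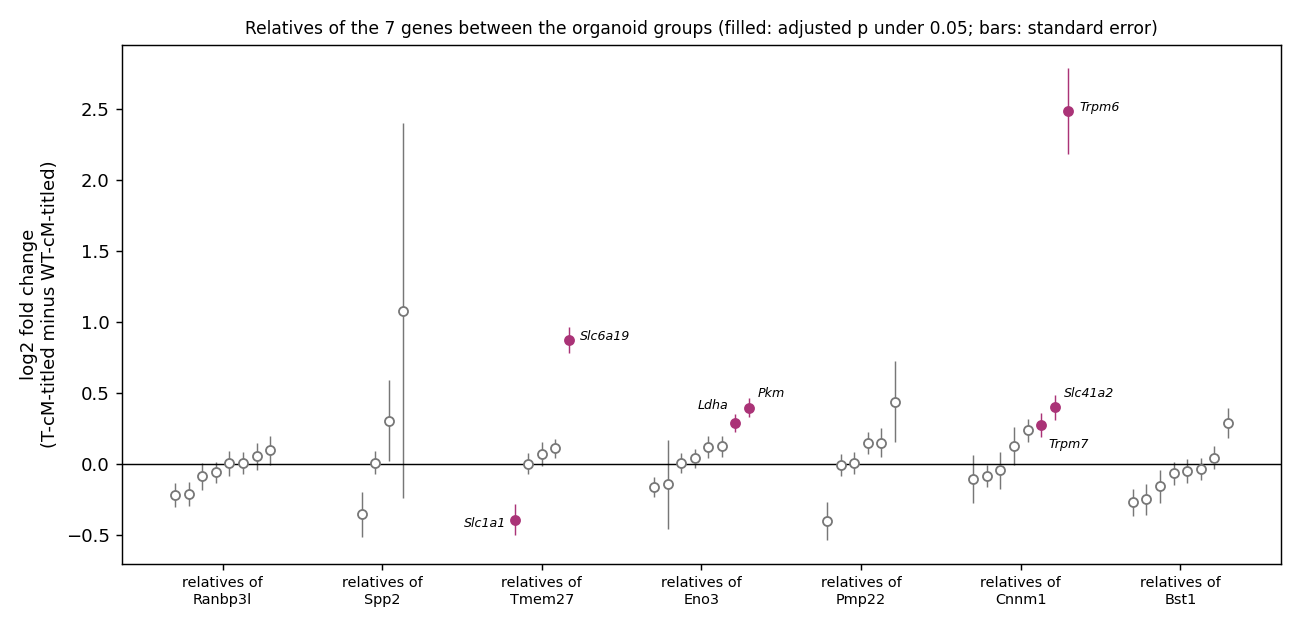
Log2 fold change of 47 relatives of the 7 genes (T-cM-titled minus WT-cM-titled organoids), grouped by the member they relate to, with standard error bars and filled, named points at an adjusted p under 0.05. Trpm6 (2.48) and Slc6a19 (0.87) lie highest among these, and the grey points are those that did not pass. Among the genes left out is Eno2, with at most 1 read per organoid library.

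In tumoroids against the mean of both organoid groups, 28 of the 51 relatives were called, 20 of them lower, where 33.1% of tested genes were called and 12.1% were lower. Their median log2 fold change was −0.28, and that of all tested genes was 0.16. Of the 8 genes tested in the Tmem27 list 6 were called lower, with log2 fold changes that included −7.22 for Slc6a19 (adjusted p = 1.9e-05), −7.21 for Slc6a20a (3.7e-04), −2.20 for Ace (2.0e-04), −1.45 for Slc1a1 (0.045) and −1.16 for Hnf4a (0.0013). For Slc1a1 the call was lost on leaving out any library except tumoroid 1 (adjusted p up to 0.092, and −0.98 without tumoroid 2), and for Hnf4a the change was −0.97 without tumoroid 3. An alternative that kept every library gave −0.68 for Hnf4a, short of the fold change threshold. Slc6a20a was at 0.227, 5.21 and 0.103 CPM in tumoroids 1, 2 and 3, so tumoroid 2 was the highest here as well.

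Of the magnesium genes, Trpm6 was called higher in tumoroids, at 22.5, 44.7 and 30.8 CPM in tumoroids 1, 2 and 3 (log2 fold change 4.21, SE 0.45, edgeR adjusted p = 5.5e-05). Cnnm3 (1.33) and Slc41a1 (1.89) were also called higher, and Slc41a2 (−6.15), Cnnm4 (−1.61) and Magt1 (−1.19) lower. For Magt1 an alternative that kept every library gave −0.66, short of the fold change threshold. In the Eno3 list the other enolases moved apart, with Eno1 called lower (−1.51, adjusted p = 0.0013) and Eno1b (5.20) and Eno2 higher, the latter from 32, 130 and 101 reads in tumoroids against at most 1 in any organoid library. Eno1b is a near-identical copy of Eno1, so that reads may be split between them. Gapdh, Pgk1, Pgam1, Pkm and Ldha were called lower, by log2 fold changes from −2.37 to −1.06. With every library kept, the smallest changes over the alternatives were −0.94 for Eno1, −0.73 for Pgk1, −0.60 for Pkm and −0.56 for Pgam1. These fell short of the fold change threshold. Leaving out tumoroid 1 or 2 took Pgk1 (adjusted p = 0.052; −0.97) and Pgam1 (−0.96 and −0.94) below the call, tumoroid 1 did so for Pkm (−0.96), and leaving out WT-cM-titled replicate 3 brought Pgam1 just under the fold change threshold.

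Of the NAD genes listed with Bst1, 4 were called lower in tumoroids, its relative Cd38 (−1.48, adjusted p = 2.5e-04), Nampt (−1.47), Naprt (−1.58) and Nadsyn1 (−1.29). With every library kept, the smallest changes over the alternatives were −0.97 for Cd38, −0.96 for Nampt and −0.74 for Nadsyn1. These fell short of the fold change threshold. Among the remaining lists Smad5 (1.29), Emp2 (4.02) and Spp1 were called higher and the cystatin gene Cst6 (−4.23) lower. Spp1, which encodes osteopontin and shares with Spp2 its name but not its fold, had 11673, 42307 and 43783 reads in tumoroids 1, 2 and 3 against at most 5 in any organoid library. Every tumoroid library lay outside the range of the organoids for each of these genes. The immune cell markers summed to 7.75, 27.1 and 25.6 CPM in tumoroids 1, 2 and 3, and their part in the Spp1 level was not tested.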

How the data were processed

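RNA was sequenced from 9 mouse libraries. The authors aligned reads to mm10 with STAR, counted them on Gencode genes and deposited raw counts, and deposited TPM, which correct for gene length and library total. The tool and strand setting of the counting are not given in the sources used here. Groups follow the titles, 3 mice each, so p-values rest on the spread between 3 samples. The replicate block comes from the study's model, and deviations from the group mean correlated between same-numbered organoid libraries (r = 0.546, 0.338 and 0.547).

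Genes reaching 1 TPM in any library were tested in R 4.3.3 with edgeR 4.0.16 (TMM, quasi-likelihood in its form before version 4), over 6 libraries with the block or over 9 without. The contrast of tumoroids with the mean of both organoid groups was read for the relatives, and the 7 genes were set beside each group instead. Standard errors are the log2 fold change over the root of F. Fold intervals are exact Poisson. Positions are from Gencode (GRCm38), and promoters and motifs from RefSeq. Likeness was computed on log2 CPM (prior count 2). Methods were tested on simulated data. Members and lists were chosen with earlier results of these data known. Named relatives are those called in either contrast, those past the adjusted p in organoids and the first of each list. Alternatives were limma 3.58.1 (voom, and log2(TPM + 1)), DESeq2 1.42.0, other factors and filters, the block, and each replicate or library left out. Some of the genes and motifs examined are counted but not reported here by name.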

Additional observations from a re-analysis of the deposited data

How the results depend on the processing

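Genes called between the organoid groups numbered 179, and 104 with limma voom, 93 with DESeq2, 0 with limma on log2(TPM + 1) and 0 in edgeR without the replicate block (904 genes at an unadjusted p under 0.05, 2690 with log2 TPM), and from 1 to 385 with a replicate left out. The other 4 alternatives gave counts within 1.5 times of 179. The log2 fold changes of the 7 genes between the organoid groups kept their direction under every alternative that gave a value, and edgeR's own filter removed Ranbp3l and Tmem27 there and Tmem27 in the tumoroid contrast. In tumoroids against the mean of both organoid groups, whose values for the 7 genes draw on the libraries that chose them, Ranbp3l ranged from −0.36 (without tumoroid 2) to 4.63 with a library left out, and the other 6 genes kept their direction. Values near 0 changed sign with a replicate left out for Ranbp3 (−0.10 to 0.16 between organoids, −0.0095 to 0.12 in tumoroids), Emp1 (−0.12 to 0.30, and −0.74 to 0.024 in tumoroids, where log2 TPM gave 0.23), Cnnm2 (−0.25 to 0.058) and Cd38 (−0.13 to 0.055). For Ranbp3 in tumoroids, an alternative that kept every library gave 0.58. The counts of genes called in tumoroids stayed within 1.5 times. Several relatives called lower there still fell short of the fold change threshold under an alternative that kept every library, as given with each above. The paper describes the tumoroids as the source of the T-cM, but does not state whether tumoroid and organoid numbers match by that source. Deviations from the group mean correlated weakly between same-numbered tumoroid and organoid libraries (r from −0.0705 to 0.196). Differently numbered libraries were not compared, so these values cannot decide whether the numbers pair. The causes were not tested. Genes of a few reads, among them Tmem27 in tumoroids, are limited by depth.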
